A study of Mus musculus with 8 samples.

Results

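Endoplasmic reticulum (ER) chaperones and the unfolded protein response (UPR) were followed through 10 genes in mouse liver. The genes were *Hspa5*, *Hsp90b1*, *Calr*, *Pdia4*, *Dnajb9*, *Xbp1*, *Atf4*, *Atf6*, *Ddit3* and *Herpud1*. They were chosen by symbol, as genes of the response, and all 10 were found among the 46078 gene identifiers counted and among the 13856 genes tested. Between control livers and livers with *Rbfox2* deleted in hepatocytes, none of the 10 differed beyond the spread between livers. *Hspa5* and 5 others varied together from liver to liver, and *Pdia4*, *Calr* and *Dnajb9* did so also with the genotype means taken out.

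Proteins that enter the secretory pathway fold in the ER lumen with the help of chaperones and oxidoreductases. When unfolded protein accumulates there, the membrane sensors IRE1, PERK and ATF6 start the UPR. IRE1 splices *Xbp1* mRNA, PERK phosphorylates eIF2α and so favours translation of ATF4, and ATF6 is cut to release a transcription factor. These factors raise chaperones, degradation components and, through ATF4, the stress regulator CHOP. Hepatocytes secrete most plasma proteins, and the UPR in liver is known to touch on lipid metabolism.

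Poly(A) RNA of 8 livers was sequenced, 4 from LWT mice and 4 from LΔRbfox2 mice, with 1 library per liver. Both groups carried *Rbfox2* alleles flanked by loxP sites. LΔRbfox2 mice also carried Cre driven by the albumin promoter, which deletes in hepatocytes and leaves *Rbfox2* in the other cells of the liver, and LWT mice lacked Cre. All mice received the control diet (CD, chow), for 12 weeks by the labels, and were fasted before the livers were taken. The comparison asks what loss of the splicing factor RBFOX2 from hepatocytes did to these mRNAs. The livers are separate samples of each group in the labels, which do not name the animals, so *P* values measure the spread between these samples.

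*Rbfox2* mRNA, measured as CPM (counts scaled to a TMM-normalised library size), was at 14.3 ± 3.96 CPM (SD, n = 4) in LWT livers and 4.03 ± 1.68 CPM (SD, n = 4) in LΔRbfox2 livers, with no overlap, as the labels have it. Libraries held 37482458 to 56177588 counts, and 3 counts corresponded to 0.0468 to 0.0929 CPM. TMM factors were 0.724 and 0.776 in LΔRbfox2 replicates 3 and 4 and 1.02 to 1.14 in the other 6 libraries. On the main axis of variation between livers (54.1% of the variance of log2 CPM), those 2 libraries lay at one end and LWT replicates 1 and 4 at the other. Hepatocyte markers (*Alb*, *Apoa1*, *Ttr*, *Cyp2e1*, *Tat*, *Hnf4a*) summed to 45380 to 68500 CPM in LWT livers and 50780 to 70660 CPM in LΔRbfox2 livers.

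A classical ER stress response element (ERSE) is read by ATF6 and XBP1 together with NF-Y. RefSeq promoters (GRCm38.p6, 250 bases before to 50 after each gene start) were searched on both strands for 4 elements. These were ERSE (CCAAT and CCACG with 9 bases between them), ERSE-II (ATTGG, 1 base, CCACG), the XBP1 element UPRE (TGACGTGG) and the ATF4-type element CARE (TGATG, 1 base, AA). An entry existed for 9 of the 10 genes, all but *Atf6*. The matches, found in 4 of these 9 genes, are shown with 5 bases on each side to give the letters of each element, and the motif letters are in capitals:
Hspa5 ERSE: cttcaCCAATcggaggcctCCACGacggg
Hsp90b1 ERSE nearer the start: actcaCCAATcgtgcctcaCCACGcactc
Hsp90b1 ERSE farther from the start: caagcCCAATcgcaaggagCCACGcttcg
Calr ERSE: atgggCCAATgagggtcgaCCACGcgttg
Herpud1 ERSE-II: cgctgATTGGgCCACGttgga
Herpud1 CARE: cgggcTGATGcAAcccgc

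The *Hspa5* element lies at chr2:34772020-34772048 on the plus strand, in the orientation of the gene, with the motif 65 to 47 bases before the RefSeq start. An *Hspa5* exon of GENCODE M21, whose first start is further upstream, covers it. The *Hsp90b1* elements lie at chr10:86705528-86705556 (plus strand, opposite to the gene, 107 to 89 bases before the start) and at chr10:86705633-86705661 (minus strand, as the gene, 212 to 194 bases before it). The *Calr* element lies at chr8:84847070-84847098 on the plus strand, opposite to the gene, 162 to 144 bases before the start. *Herpud1* has its ERSE-II at chr8:94386372-94386392 on the plus strand, as the gene, 52 to 42 bases before the start, and its CARE at chr8:94386312-94386329 on the minus strand, opposite to the gene, 112 to 105 bases before it. Apart from the *Hspa5* element, none of these windows lies in a GENCODE exon. Of 32851 promoters, 39 (0.119%) held ERSE, 12 (0.0365%) ERSE-II, 222 (0.676%) UPRE and 1304 (3.97%) CARE. None of the 4 was matched in the windows of *Pdia4*, *Dnajb9*, *Xbp1*, *Atf4* and *Ddit3*, which says only that these letters are not in those windows.

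**Figure D1:**
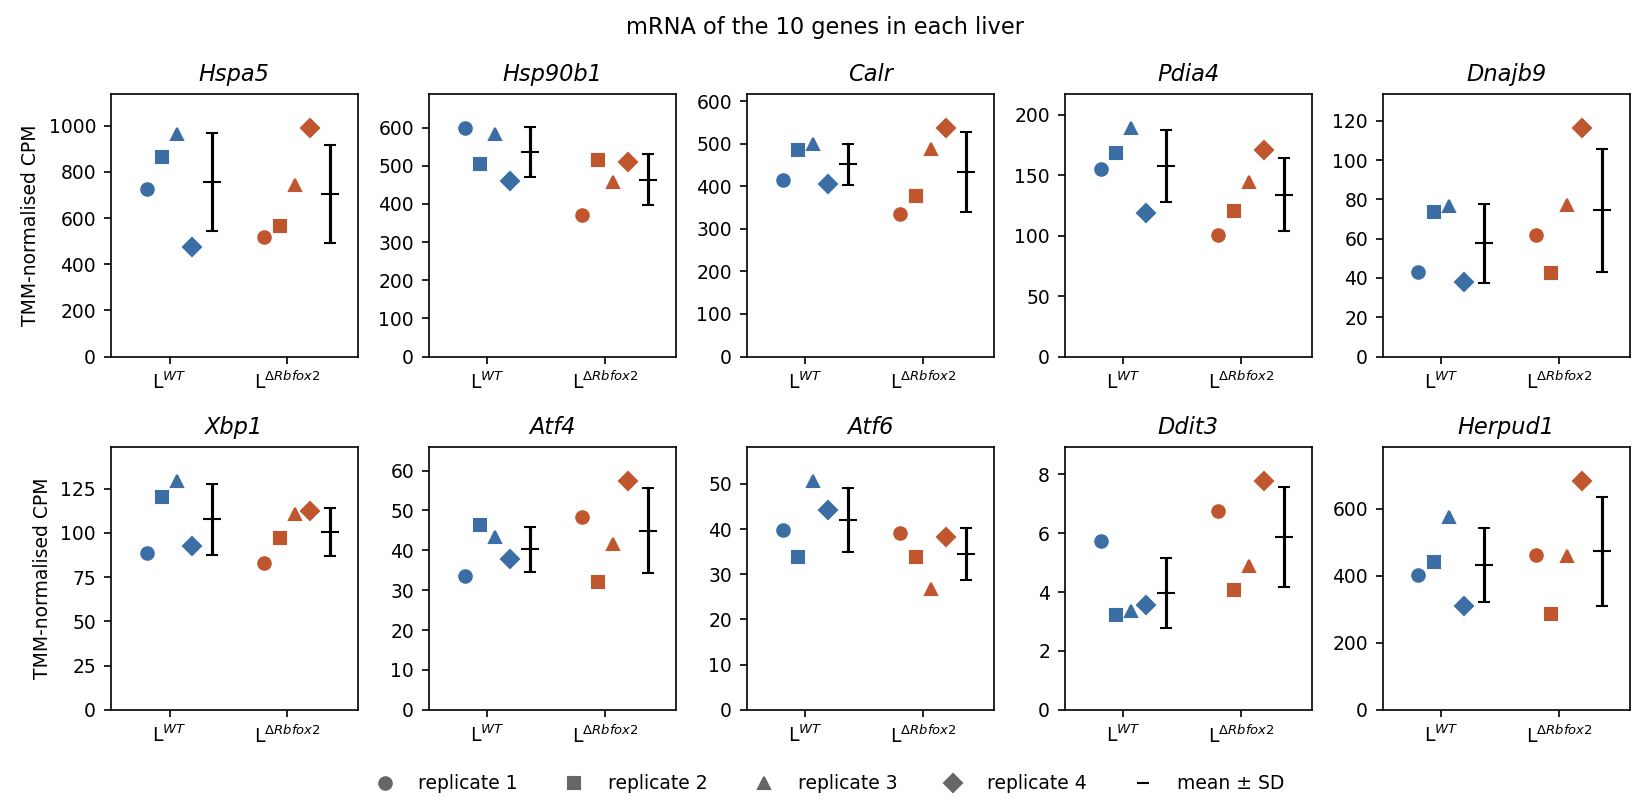
TMM-normalised CPM of each of the 10 genes in the 4 LWT livers (blue) and the 4 LΔRbfox2 livers (orange), on linear axes from 0, with the replicate number given by the symbol and mean ± SD beside the points (n = 4). The 2 groups overlap for every gene, and LΔRbfox2 replicate 4 holds the highest value for 6 of the 10.

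For the ER lumen chaperones, no difference in mRNA between genotypes exceeded the spread between livers. *Hspa5* (BiP, the ER member of the HSP70 family and the protein that holds the sensors inactive; ENSMUSG00000026864, chr2:34771970-34777547, plus strand) stood at 724, 866, 962 and 473 CPM in LWT replicates 1 to 4 and at 517, 568, 742 and 991 CPM in LΔRbfox2 replicates 1 to 4. The lowest liver was LWT replicate 4 and the highest LΔRbfox2 replicate 4, so each group spanned most of the range of the other. The group means were 756 ± 213 and 704 ± 214 CPM (SD, n = 4 each), a log2 fold change of −0.10 (LΔRbfox2 against LWT, SE 0.28, adjusted *P* = 0.876). Here and below, fold changes and *P* values come from the quasi-likelihood test of edgeR, *P* values being adjusted over all 13856 genes by Benjamini–Hochberg, and SEs and 95% intervals from limma-voom. The interval for *Hspa5* reached from 0.610-fold to 1.44-fold.

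*Hsp90b1* (GRP94, the HSP90 of the ER; ENSMUSG00000020048, chr10:86690209-86705509, minus strand) measured 599, 503, 583 and 461 CPM in LWT replicates 1 to 4 and 371, 515, 457 and 510 CPM in LΔRbfox2 replicates 1 to 4. No LΔRbfox2 liver exceeded the LWT median, yet 2 LΔRbfox2 livers lay above the lower LWT values. The log2 fold change was −0.21 (SE 0.18, adjusted *P* = 0.627), with means of 536 ± 65.7 and 463 ± 67.0 CPM (SD, n = 4 each). Exons of *1810014B01Rik*, *Gm15344* and *Gm25745* overlap those of *Hsp90b1*, and reads in the overlap are uncertain.

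*Calr* (calreticulin, a lectin chaperone that binds glycoproteins and calcium; ENSMUSG00000003814, chr8:84841850-84846934, minus strand) was at 415, 486, 500 and 406 CPM in LWT livers and at 335, 377, 488 and 537 CPM in LΔRbfox2 livers, in replicate order. The LΔRbfox2 livers held both the lowest and the highest value. *Pdia4* (a protein disulfide isomerase; ENSMUSG00000025823, chr6:47796141-47813430, minus strand) gave 155, 169, 189 and 118 CPM in LWT livers and 101, 120, 144 and 171 CPM in LΔRbfox2 livers. For *Pdia4* 3 of the 4 LΔRbfox2 livers lay under the LWT median, and the fourth under only the highest LWT liver. The log2 fold changes were −0.06 for *Calr* (SE 0.19, adjusted *P* = 0.903) and −0.24 for *Pdia4* (SE 0.22, adjusted *P* = 0.646).

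*Dnajb9* (ERdj4, a J-domain cochaperone of BiP; ENSMUSG00000014905, chr12:44205559-44210326, minus strand) had the widest range of the 10 genes, 3.08-fold from the lowest to the highest liver. It stood at 43.0, 73.5, 76.6 and 37.8 CPM in LWT replicates 1 to 4 and at 61.7, 42.5, 77.3 and 116 CPM in LΔRbfox2 replicates 1 to 4. The lowest liver was again LWT replicate 4 and the highest LΔRbfox2 replicate 4. Its log2 fold change was 0.37 (SE 0.34, adjusted *P* = 0.648), and the interval, 0.758-fold to 2.15-fold, was the widest on the log2 scale. With each library corrected for GC content and exon length the value was −0.09, the opposite sign.

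Among the transcription factors, no mRNA level separated the genotypes. *Xbp1* (the factor made active by IRE1 splicing; ENSMUSG00000020484, chr11:5520659-5525893, plus strand) measured 88.5, 120, 129 and 92.5 CPM in LWT livers and 83.0, 97.0, 111 and 112 CPM in LΔRbfox2 livers. All 4 LΔRbfox2 values lay under the 2 highest LWT values and overlapped the others, and the log2 fold change was −0.10 (SE 0.19, adjusted *P* = 0.820). Counts per gene do not separate spliced from unspliced *Xbp1*, and they carry nothing on translation of ATF4 or cleavage of ATF6.

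*Atf6* (the sensor cleaved in the Golgi; ENSMUSG00000026663, chr1:170704674-170867771, minus strand) was at 39.8, 33.9, 50.6 and 44.2 CPM in LWT livers and at 39.2, 33.8, 26.7 and 38.4 CPM in LΔRbfox2 livers. Every LΔRbfox2 liver lay under the LWT median, but LWT replicate 2 lay about as low as the second-lowest of them. The log2 fold change was −0.29 (SE 0.19, unadjusted *P* = 0.152, adjusted *P* = 0.566). *Atf4* (the factor translated when eIF2α is phosphorylated; ENSMUSG00000042406, chr15:80255184-80257541, plus strand) gave 33.5, 46.3, 43.4 and 37.7 CPM in LWT livers and 48.3, 32.1, 41.7 and 57.4 CPM in LΔRbfox2 livers. Both extremes of *Atf4* were LΔRbfox2 livers, and its log2 fold change was 0.16 (SE 0.21, adjusted *P* = 0.730).

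*Ddit3* (CHOP, the stress regulator downstream of ATF4; ENSMUSG00000025408, chr10:127290774-127296288, plus strand) came nearest to a difference. It stood at 5.75, 3.21, 3.35 and 3.57 CPM in LWT replicates 1 to 4 and at 6.74, 4.08, 4.89 and 7.77 CPM in LΔRbfox2 replicates 1 to 4. All 4 LΔRbfox2 livers lay above the LWT median, and LWT replicate 1 lay above 2 of them. The means were 3.97 ± 1.19 and 5.87 ± 1.69 CPM (SD, n = 4 each), and the log2 fold change was 0.56 (SE 0.27, unadjusted *P* = 0.0669, adjusted *P* = 0.515), with an interval from 0.959-fold to 2.23-fold. Without LWT replicate 1 the unadjusted *P* was 0.0155 and without LΔRbfox2 replicate 2 it was 0.0257, with adjusted *P* values of 0.851 and 0.159, whereas after the correction for GC content and exon length the log2 fold change was 0.09 and the unadjusted *P* 0.766. Exons of a further *Ddit3* gene model, of *Gm4189* and of *Mars* overlap this gene, the last 2 on the other strand, and the strand setting of the counting is not given in the sources used here.

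*Herpud1* (HERP, a membrane protein of ER-associated degradation; ENSMUSG00000031770, chr8:94386438-94395377, plus strand) measured 403, 441, 576 and 311 CPM in LWT livers and 461, 286, 460 and 683 CPM in LΔRbfox2 livers. The LΔRbfox2 livers again enclosed the LWT livers. The log2 fold change was 0.13 (SE 0.28, adjusted *P* = 0.842), and it fell to −0.10 without LΔRbfox2 replicate 4.

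**Figure D2:**
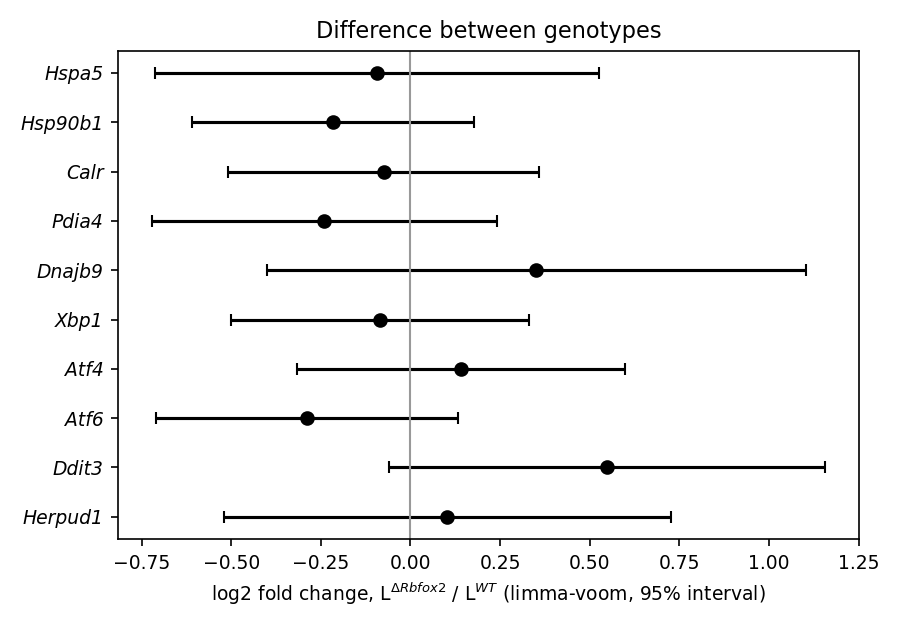
Log2 fold change of each of the 10 genes, LΔRbfox2 against LWT, with the 95% interval, both from limma-voom on 8 livers. All 10 intervals include 0, and the lower bound of *Ddit3*, −0.06, is the one nearest to it.

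The adjusted *P* was at most 0.05 for 0 of the 10 genes, against 0% of all genes (0 of 13856, with 1356 at an unadjusted *P* under 0.05). The DESeq2 test called 10 genes, none of them among the 10 described here, and limma-voom called 0. At an unadjusted *P* under 0.05, 0 of the 10 were higher, against 7.95% of all genes, and 0 were lower, against 1.83%. After the correction for GC content and exon length, 0 of the 10 were higher, against 4.79% of all genes, and 2 were lower (*Pdia4* and *Hsp90b1*), against 2.62%. Values did not overlap between genotypes in 0 of the 10, against 2.28% of all genes. Log2 fold changes were negative in 6 and positive in 4, with a median of −0.077, beside −0.015 over all genes tested. The intervals do not show that the genotypes were alike: together they ran from −0.72 to 1.16 on the log2 scale. Counts of 155 to 46263 per gene and liver stood behind these values, and the range between the highest and the lowest liver was 1.56-fold to 3.08-fold.

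Compared per kilobase of exon, the 10 mRNAs covered an 80.1-fold range of level in LWT livers. There *Herpud1* was at 186 ± 47.1, *Hspa5* at 179 ± 50.3, *Calr* at 157 ± 16.6 and *Hsp90b1* at 133 ± 16.3 CPM per kb (SD, n = 4). These 4 neighbours overlapped within 1 SD of their means. *Pdia4* followed at 65.8 ± 12.4, *Xbp1* at 33.1 ± 6.21, *Dnajb9* at 22.7 ± 7.90 and *Atf4* at 17.1 ± 2.43 CPM per kb. *Pdia4* was clear of both its neighbours by more than 1 SD on each side, while *Xbp1* overlapped *Dnajb9* and *Dnajb9* overlapped *Atf4*. *Atf6* at 4.56 ± 0.77 and *Ddit3* at 2.32 ± 0.70 CPM per kb were the least abundant and did not overlap within 1 SD.

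In LΔRbfox2 livers the levels per kilobase were 203 ± 69.6 for *Herpud1*, 167 ± 50.6 for *Hspa5*, 151 ± 32.8 for *Calr* and 115 ± 16.6 for *Hsp90b1* (SD, n = 4). The remaining 6 genes also kept the order they had in LWT livers, from *Pdia4* at 55.9 ± 12.6 CPM per kb to *Ddit3* at 3.43 ± 0.99 CPM per kb.

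**Figure D3:**
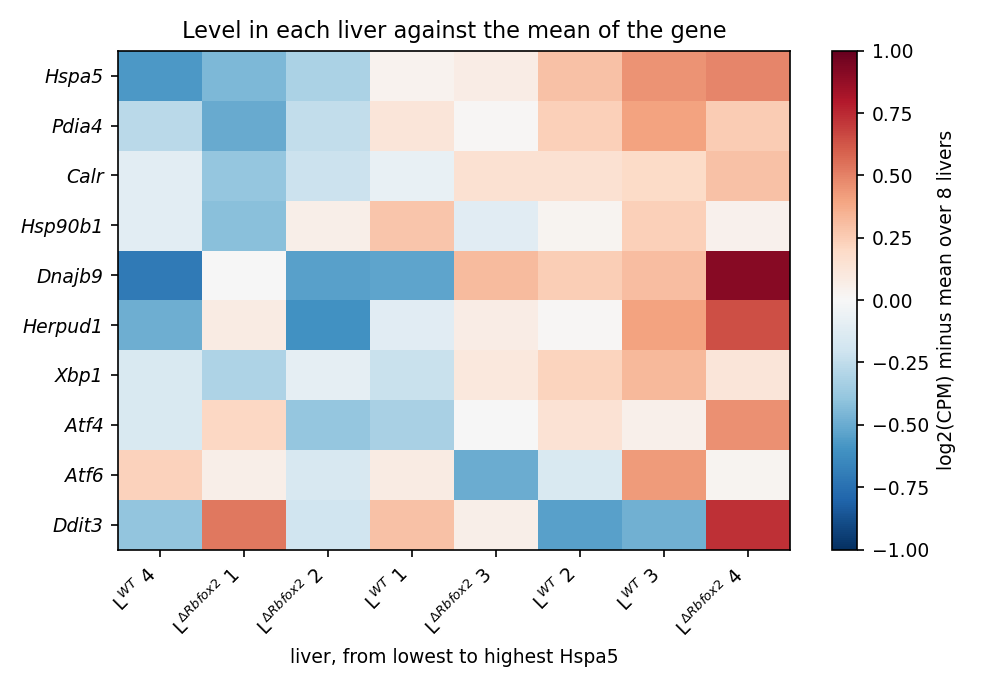
Log2 CPM of each of the 10 genes minus its mean over the 8 livers (colour scale, −1 to 1), with livers ordered from lowest to highest *Hspa5*. *Pdia4*, *Calr*, *Dnajb9*, *Herpud1* and *Xbp1* tend to change along with *Hspa5* from left to right, with both genotypes at each end, and *Ddit3* and *Atf6* do not.

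*Pdia4*, *Calr*, *Xbp1*, *Herpud1* and *Dnajb9* varied together with *Hspa5* between livers, and *Pdia4*, *Calr* and *Dnajb9* also passed the test within genotypes. Pearson's *r* of log2 CPM with *Hspa5* over the 8 livers was 0.94 for *Pdia4* (two-sided exact permutation test, *P* = 0.00131, adjusted over the 9 relations *P* = 0.0118, Spearman's rho 0.93, adjusted exact *P* = 0.0201). After centring within genotype it was 0.98 (adjusted *P* = 0.0156, exact permutation within genotype over 576 orderings, where the unadjusted 0.00174 is the smallest possible), and without LWT replicate 4 and LΔRbfox2 replicate 1, the 2 livers farthest from the median of *Hspa5*, it was 0.95. The relation of *Pdia4* stayed past the threshold with each liver left out in turn, at 0.93 to 0.96. Of the 13855 other genes, 0.0289% reached an *r* with *Hspa5* at least as high.

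*Calr* had an *r* of 0.88 with *Hspa5* over the 8 livers (adjusted exact permutation *P* = 0.0277) and a rho of 0.90 (adjusted exact *P* = 0.0205), with 0.87 after centring within genotype (adjusted exact permutation *P* = 0.0234) and 0.92 without the 2 farthest livers. For *Xbp1* the *r* was 0.82 and the rho 0.81 (adjusted exact permutation *P* = 0.0451 and 0.049), and the *r* was 0.81 after centring (adjusted exact permutation *P* = 0.0625, not past the threshold) and 0.72 without those 2 livers. *Herpud1* had an *r* of 0.79 (adjusted exact permutation *P* = 0.0451), a centred *r* of 0.82 (adjusted exact permutation *P* = 0.0625) and 0.95 without those 2 livers, while its rho of 0.69 did not pass (adjusted exact *P* = 0.125). *Dnajb9* had an *r* of 0.78 (adjusted exact permutation *P* = 0.0451) and a rho of 0.86 (adjusted exact *P* = 0.0321), with a centred *r* of 0.88 (adjusted exact permutation *P* = 0.026) and 0.84 without those 2 livers.

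In all, 5 of the 9 relations passed as measured and 3 of them also centred within genotype. Centring leaves other differences between libraries in place, such as the main axis of variation. *Hspa5* and *Dnajb9* were lowest in LWT replicate 4 and highest in LΔRbfox2 replicate 4, at opposite ends of it. *Pdia4*, *Calr* and *Xbp1* were lowest in LΔRbfox2 replicate 1, away from the ends. The part of that axis, or of GC content and exon length, in these correlations was not tested. The share of all other genes with an *r* at least as high was 0.231% for *Calr*, 0.621% for *Xbp1*, 0.909% for *Herpud1* and 1.025% for *Dnajb9*. With 7 livers, *Calr* lost the threshold without LWT replicate 2 or 3 or LΔRbfox2 replicate 3 or 4, at an *r* of 0.84 to 0.89. *Xbp1* kept it only without LWT replicate 1, *Herpud1* only without LΔRbfox2 replicate 1, and *Dnajb9* only without either of these. The *r* values of these 3 genes stayed between 0.69 and 0.92 across all such fits.

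*Hsp90b1*, the chaperone gene with 2 ERSE matches, had an *r* of 0.58 with *Hspa5* (adjusted exact permutation *P* = 0.189, rho 0.38), which was 0.13 without the 2 farthest livers. *Atf4* had an *r* of 0.49 (adjusted exact permutation *P* = 0.283, rho 0.50), and 0.87 without those 2. *Ddit3* and *Atf6* were at 0.04 and 0.02 (adjusted exact permutation *P* = 0.960 for both). Over all 45 pairs of the 10 genes, *r* was positive in 36, had a median of 0.45, and exceeded 0.8 in 9. The same shares over pairs of all genes were not computed. The highest pair was *Hspa5* with *Pdia4*, followed by *Dnajb9* with *Herpud1* at 0.91. The median *r* of all other genes with *Hspa5* was −0.031.

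The mean standardised log2 CPM of *Hspa5*, *Hsp90b1*, *Calr* and *Pdia4* was used to look for genes with the same profile over the 8 livers, as a description. *Creld2*, an ER disulfide isomerase of the response, was most alike (*r* = 0.96, and 0.99 centred within genotype). It stood at 39.1, 47.6, 54.2 and 23.6 CPM in LWT livers and at 20.97, 28.6, 41.4 and 69.5 CPM in LΔRbfox2 livers. *Slc35b1*, the carrier that brings ATP into the ER, also had an *r* of 0.96. *Lgalsl* and *6330549D23Rik* followed at 0.94 each, then *Mfap3* at 0.92, and *6330549D23Rik* overlaps an exon of *Lix1l* and stayed under 0.5 CPM in every liver. Matches were found in the promoters of 2 of these 5 genes. They are shown because they are the same 2 kinds of element as in the genes above:
Creld2 ERSE: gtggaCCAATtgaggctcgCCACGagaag
Lgalsl ERSE-II: cggccATTGGaCCACGgctga

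The *Creld2* element lies at chr15:88819515-88819543 on the minus strand, opposite to the gene, 126 to 108 bases before its start, and the *Lgalsl* element at chr11:20831302-20831322 on the plus strand, opposite to the gene, 209 to 199 bases before its start. No entry existed for *6330549D23Rik*, and *Slc35b1* and *Mfap3* had no match in their windows.

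The wider pathway was read from 6 lists that hold the 10 genes and others of their kind, 119 genes in all, of which 116 were tested. The smallest adjusted *P* of edgeR among them was 0.504, so 0 passed. That value was also the smallest of all genes tested, and *Rbfox2* itself had it. At an unadjusted *P* under 0.05, 10 of the 116 were higher in LΔRbfox2 livers, near the 7.95% of all genes, and 5 were lower, beside 1.83%. Values did not overlap between genotypes for 3 of the 116, near the 2.28% of all genes. These were *Edem1*, *Mbtps1* and *Rpn2*, the last named after its values were seen.

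**Figure D4:**
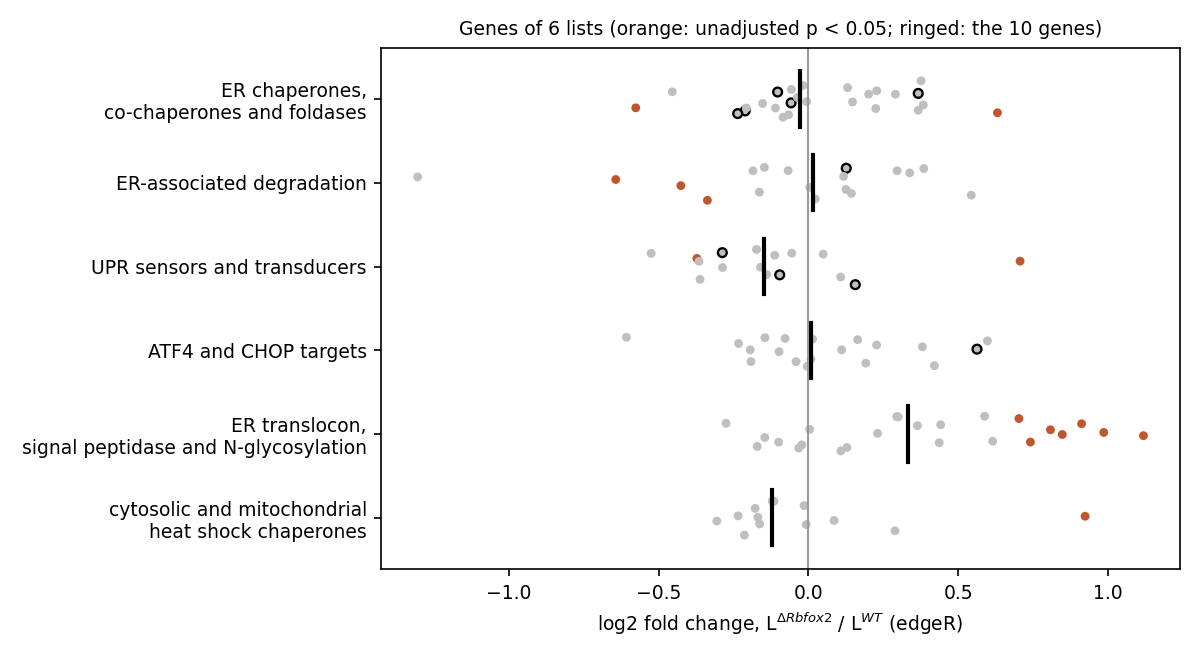
Log2 fold change (edgeR, LΔRbfox2 against LWT) of each tested gene of the 6 lists, with the list median as a black bar, genes at an unadjusted *P* under 0.05 in orange and the 10 genes ringed. The translocon list has the highest median, 0.33, and 7 orange points to the right of 0.

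ER chaperones, co-chaperones and foldases (26 tested) had a median log2 fold change of −0.03. At an unadjusted *P* under 0.05, 1 gene was higher and 1 lower, beside 7.95% and 1.83% of all genes. *Hyou1*, a nucleotide exchange factor of BiP, measured 141, 97.1, 145 and 89.5 CPM in LWT livers and 65.1, 84.1, 64.9 and 103 CPM in LΔRbfox2 livers (log2 fold change −0.58, SE 0.23, unadjusted *P* = 0.0301, adjusted *P* = 0.504). All 4 LΔRbfox2 livers lay under the LWT median. *Cnpy2*, an ER saposin-like protein, was higher by 0.63 (SE 0.26, unadjusted *P* = 0.0332, adjusted *P* = 0.504, both from edgeR), with 1 LWT liver, replicate 2, inside the LΔRbfox2 range. After the correction for GC content and exon length, *Hyou1* was at −0.32 (unadjusted *P* = 0.231) and *Cnpy2* at 0.39. *Cnpy2* then stayed at an unadjusted *P* under 0.05. The unadjusted *P* of *Hyou1* missed 0.05 without LWT replicate 1 or 3 or LΔRbfox2 replicate 1 or 3, and that of *Cnpy2* without LWT replicate 1, 3 or 4 or LΔRbfox2 replicate 3 or 4. In the promoters of this list, ERSE matched in 7 of 21 (*Calr*, *Canx*, *Creld2*, *Dnajc3*, *Hsp90b1*, *Hspa5*, *Pdia6*), beside 0.119% of all promoters.

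ER-associated degradation (18 tested) had a median of 0.01, with 0 higher and 3 lower, beside 7.95% and 1.83% of all genes. The 3 were *Syvn1* (HRD1, the ubiquitin ligase; −0.64, SE 0.26), *Sel1l* (its partner; −0.43, SE 0.18) and *Edem1* (a mannosidase-like lectin; −0.34, SE 0.15), at unadjusted edgeR *P* values of 0.0291, 0.0359 and 0.0422 and an adjusted *P* of 0.504 each. *Edem1* stood at 76.8 to 95.6 CPM in LWT livers and at 64.2 to 73.8 CPM in LΔRbfox2 livers. Exons of *Mrpl49*, on the other strand, overlap those of *Syvn1*. After the correction for GC content and exon length the 3 fold changes were −0.39, −0.27 and −0.26, and 0 genes of the list were at an unadjusted *P* under 0.05. That count of lower genes was also 0 without LWT replicate 1 or 3 or LΔRbfox2 replicate 1, and 1 without LΔRbfox2 replicate 3. ERSE matched in 2 of 13 promoters of this list (*Derl3*, *Syvn1*), beside 0.119% of all promoters.

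UPR sensors and transducers (16 tested) had a median of −0.15, with 1 gene higher and 1 lower, beside 7.95% and 1.83% of all genes. *Eif2s1*, which encodes the eIF2α that PERK phosphorylates, was at 18.03, 32.2, 24.7 and 17.7 CPM in LWT livers and at 33.01, 26.1, 45.8 and 46.4 CPM in LΔRbfox2 livers (log2 fold change 0.71, SE 0.26, unadjusted *P* = 0.0201, adjusted *P* = 0.504). LWT replicate 2 lay above LΔRbfox2 replicate 2, and the other LWT livers below all LΔRbfox2 livers. After the correction for GC content and exon length, *Eif2s1* was at 0.51 and stayed at an unadjusted *P* under 0.05. *Mbtps1*, the site-1 protease that cuts ATF6, stood at 29.4 to 34.8 CPM in LWT livers and at 22.1 to 28.0 CPM in LΔRbfox2 livers, a log2 fold change of −0.37 (SE 0.15, unadjusted *P* = 0.0300, adjusted *P* = 0.504), and of −0.14 after the correction. The unadjusted *P* of *Eif2s1* missed 0.05 without LWT replicate 1 or 4 or LΔRbfox2 replicate 3 or 4. That of *Mbtps1* missed it after the correction, and also without LWT replicate 3 or 4 or LΔRbfox2 replicate 1, 3 or 4.

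Targets of ATF4 and CHOP (19 of 22 tested, without *Phgdh*, *Stc2* and *Slc7a11*) had a median of 0.01. At an unadjusted *P* under 0.05, 0 were higher and 0 lower, beside 7.95% and 1.83% of all genes. The count was 1 higher without LWT replicate 1, 2 higher without LΔRbfox2 replicate 2 and 1 lower without LΔRbfox2 replicate 3. *Eif4ebp1*, a brake on cap-dependent translation, had the smallest *P* of the list (log2 fold change 0.42, unadjusted *P* = 0.0559, adjusted *P* = 0.509), and a log2 fold change of 0.14 after the correction for GC content and exon length. *Chac1*, a glutathione-degrading enzyme, was at 0.58 to 1.05 CPM in LWT livers and 0.21 to 1.08 CPM in LΔRbfox2 livers (log2 fold change −0.61, unadjusted *P* = 0.270, adjusted *P* = 0.630). CARE matched in 9 of 20 promoters of this list (*Aars*, *Asns*, *Atf3*, *Chac1*, *Fgf21*, *Gars*, *Nupr1*, *Slc7a11*, *Trib3*), beside 3.97% of all promoters, and ERSE in 0.

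The ER translocon, signal peptidase and N-glycosylation list had 7 of 24 tested genes higher and 0 lower, beside 7.95% and 1.83% of all genes. Its median was 0.33, and its count of higher genes was the largest of the lists. *Sec11c*, a signal peptidase subunit, measured 13.3, 15.4, 10.5 and 10.96 CPM in LWT livers and 22.3, 12.4, 28.2 and 36.5 CPM in LΔRbfox2 livers (log2 fold change 0.99, SE 0.31, unadjusted *P* = 0.00804, adjusted *P* = 0.504). LΔRbfox2 replicate 2 lay within the LWT range and the other 3 above it. *Spcs1* (signal peptidase, 0.85), *Srp14* (signal recognition particle, 0.81) and *Ostc* (oligosaccharyltransferase, 0.91) had unadjusted edgeR *P* values of 0.0224, 0.0260 and 0.0271 and an adjusted *P* of 0.504 each. In all 3 of these genes LΔRbfox2 replicate 2 lay within the LWT range. Exons of *Glt8d1*, on the other strand, overlap those of *Spcs1*. After the correction for GC content and exon length, *Spcs1* was at 0.24 (unadjusted *P* = 0.0687) and *Srp14* at 0.37.

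The mean deviation of the translocon list from the gene means was 0.54 in LΔRbfox2 replicate 4 and 0.33 in replicate 3 on the log2 scale, and −0.39 and −0.32 in LWT replicates 4 and 1, the same livers that lie at the ends of the main axis. The number at an unadjusted *P* under 0.05 was 1 without LWT replicate 1, without LWT replicate 4, without LΔRbfox2 replicate 3 or without LΔRbfox2 replicate 4, and 14 without LΔRbfox2 replicate 2. It was 2 without LWT replicate 3, 3 with limma-voom and 6 after the correction for GC content and exon length, when the median was 0.20. *Sec11c* passed an unadjusted *P* of 0.05 in all of these fits. The part of that axis in the list's values was not tested.

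Heat shock chaperones of the cytosol and mitochondria (13 tested) had a median of −0.12, with 1 higher and 0 lower, beside 7.95% and 1.83% of all genes. *Hspe1*, the mitochondrial HSP10, stood at 75.6, 137, 79.2 and 54.3 CPM in LWT livers and at 160, 80.7, 173 and 242 CPM in LΔRbfox2 livers (log2 fold change 0.92, unadjusted *P* = 0.0262, adjusted *P* = 0.504), and its exons overlap those of *Hspd1*. After the correction for GC content and exon length, *Hspe1* was at 0.46 and stayed at an unadjusted *P* under 0.05. LΔRbfox2 replicate 2 was again inside the LWT range, and the unadjusted *P* missed 0.05 without LWT replicate 1, 3 or 4 or LΔRbfox2 replicate 3 or 4. *Hspa8*, the constitutive cytosolic HSP70, had a log2 fold change of 0.29 (unadjusted *P* = 0.194, adjusted *P* = 0.585).

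**Figure D5:**
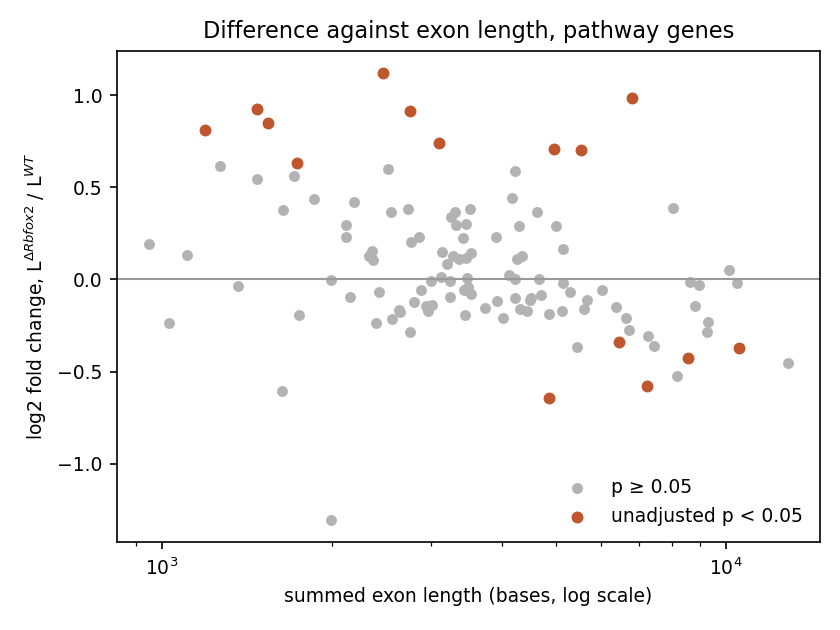
Log2 fold change (edgeR, LΔRbfox2 against LWT) of the 116 tested pathway genes against their summed exon length in bases (log axis), with genes at an unadjusted *P* under 0.05 in orange. Higher genes lie mostly to the left and lower genes to the right.

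Fold changes in the pathway moved with exon length. The 10 higher genes had a median exon length of 2608 bases and the 5 lower genes 7230 bases. Across the 116 genes, the log2 fold change had an *r* of −0.34 with log2 exon length (rho −0.37), and across 13806 genes tested it had −0.36 (rho −0.39). These correlations are across genes, which are not independent replicates. Among the 10 genes, *Ddit3* was the shortest at 1713 bases with the highest fold change, and *Atf6* the longest at 9231 bases with the lowest. Length did not order the genes between them: *Pdia4*, at 2399 bases, had −0.24, under the −0.10 of *Hspa5* at 4229 bases. After the correction, *Atf6* was at −0.15, *Pdia4* at −0.48 (unadjusted *P* = 0.0205) and *Hsp90b1* at −0.41 (unadjusted *P* = 0.0494), with an adjusted edgeR *P* of 0.647 for both of the latter. The part of exon length in the fold changes was not tested further.

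Markers of other cells were low beside those of hepatocytes. In bulk liver, fewer cells of a type and less RNA per cell cannot be told apart. The 7 Kupffer cell markers summed to 72.0 to 129 CPM in LWT livers and 41.9 to 86.6 CPM in LΔRbfox2 livers, with 1 of 7 (*Clec4f*) lower at an unadjusted edgeR *P* of 0.0207 (adjusted *P* = 0.504), beside 1.83% of all genes. After the correction for GC content and exon length, 4 of the 7 were lower at an unadjusted *P* under 0.05, beside 2.62% of all genes, and the median of the list went from −0.28 to −0.65. The sums of the other lists, LWT first, were 75.4 to 102 and 65.6 to 86.5 CPM for sinusoidal endothelial cells, 65.0 to 125 and 83.7 to 126 CPM for stellate cells, and 14.6 to 25.8 and 16.4 to 60.9 CPM for cholangiocytes. Plasma and B cells, whose plasma cells are rich in ER chaperones, summed to 3.24 to 6.29 and 1.94 to 7.90 CPM. Acinar cells of the pancreas, also rich in them, summed to 3.53 to 4.66 and 3.05 to 9.88 CPM, with *Cpa1*, *Ctrb1* and *Cel* at 0 in every liver. Only 1 of the 6 acinar markers, *Cela1*, passed the filter on low counts. The part of these cells in the results above was not tested.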

How the data were processed

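RNA-seq of poly(A)-enriched liver RNA was used, 1 library per liver, 4 LWT and 4 LΔRbfox2. By the study's methods the authors sequenced 100 bp paired-end reads, aligned them to GRCm38 with TopHat2 and counted reads per gene with featureCounts. By the submitters' processing notes TopHat2 was version 2.0.11 and CASAVA version 1.8.4. The deposited values are these raw counts, whole numbers without normalization. The featureCounts version and its strand and multi-mapping settings are not given in the sources used here. Groups and replicate numbers came from the labels, which state 12 weeks of diet, whereas the study's methods give a longer time.

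Symbols, positions and exon lengths were taken from GENCODE M21 (GRCm38), where 45229 of 46078 identifiers had an entry. edgeR 4.0.16 in R 4.3.3 was used on the counts: after filterByExpr (at least 10 counts, and 15 in total) 13856 genes remained, TMM factors were computed, and LΔRbfox2 livers were set against LWT livers by glmQLFit and glmQLFTest without covariates, an adjusted *P* of at most 0.05 being called. Standard errors and 95% intervals came from limma-voom (limma 3.58.1), and log2 CPM used a prior count of 2. The correction for GC content and exon length used lowess offsets per library (span 0.3). Permutation tests over livers were exact and two-sided, and livers were permuted within genotype for centred values. No 2 libraries of a genotype were copies: chi-square per degree of freedom between them was at least 97.8. The counting floor of 3 counts covers counting error only. Scripts were tested on simulated data with 200 changed genes. Python 3.11.15, scipy 1.17.1, pandas 2.3.3 and matplotlib 3.10.9 were used for correlations, motif searches and figures.

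The 10 genes, the pathway and marker lists and the tests were chosen with earlier results of these data known. Named pathway genes are, per list, up to 4 genes at an unadjusted *P* under 0.05 by smallest *P*, or the 2 with the smallest *P* where fewer than 2 reached it, and the 5 genes most like the mean chaperone profile. Alternatives were DESeq2 (1.42.0) or upper-quartile factors, the DESeq2 and limma-voom tests, no filter or a stricter one on low counts, the correction above, the replicate number as a block, both together, an adjusted *P* of at most 0.1, and each liver left out in turn. Splicing and the protein, lipid and other diet data of the study were not analysed here.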

Additional observations from a re-analysis of the deposited data

Results flagged for a closer look

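In LWT replicate 1, *Ddit3* was at 5.75 CPM, set apart from the 3.21 to 3.57 CPM of the other 3 LWT livers (Dixon's test at the 95% level). In LWT replicate 2, *Cnpy2* stood at 54.0 CPM, with the remaining LWT livers at 34.3 to 37.5 CPM. These were 2 of 50 groups of 4 livers examined, where 1 in 20 would be 2.5. That number holds for independent and unselected groups. The groups here share the same 8 livers, and the pathway genes were named by their *P* values in these data, so it is only a rough guide.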

How the results depend on the processing

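The count of genes past the adjusted threshold was 0 under every alternative except the DESeq2 test, which called 10, and the count among the 10 genes was 0 under all of them, with a smallest adjusted *P* of 0.159 (*Ddit3*, edgeR, without LΔRbfox2 replicate 2). Of 170 alternative fold changes of the 10 genes, 160 kept their direction and 10 reversed. *Dnajb9* was at −0.085 with the GC content and exon length correction and at −0.080 with the replicate block added, where *Herpud1* was at −0.020. When single livers were omitted, the log2 fold change ran from −0.31 to 0.039 for *Hspa5*, −0.17 to 0.054 for *Calr*, −0.20 to 0.0086 for *Xbp1* and −0.10 to 0.30 for *Herpud1*. The cause of these reversals was not tested. Correlations with *Hspa5* under the same omissions ran from 0.84 to 0.95 for *Calr*, 0.69 to 0.87 for *Dnajb9*, 0.76 to 0.90 for *Xbp1*, 0.71 to 0.92 for *Herpud1*, −0.36 to 0.27 for *Atf6* and −0.38 to 0.29 for *Ddit3*, and centring within genotype gave −0.064 for *Atf6*, and 0.81 for *Xbp1* and 0.82 for *Herpud1*, which then missed the threshold. The median of the translocon list, 0.33, ran from 0.19 (correction and block) to 0.49 (LΔRbfox2 replicate 2 omitted).

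Same-numbered livers are different animals, and their deviations from the group means correlated at 0.13, −0.61, 0.12 and −0.51 for replicates 1 to 4, so the numbers were not taken as pairs. With the replicate block, 0 genes were called and 335 were at an unadjusted *P* under 0.05 (229 higher, 106 lower) in place of 1356 (1102 higher, 254 lower), and the smallest adjusted *P* among the 10 genes was 0.831 (edgeR). In the translocon list 1 of 24 genes was then at an unadjusted *P* under 0.05 in place of 7, with the correction or without it. The higher and lower genes at that threshold were 829 and 338 with upper-quartile factors, 1240 and 604 without a filter, 664 and 363 with the correction, and 173 and 196 with the correction and the block. Without single livers their sum lay between 404 (LΔRbfox2 replicate 4 omitted) and 3475 (LΔRbfox2 replicate 2 omitted). With 4 livers per genotype the 95% intervals of the 10 genes together run from −0.72 to 1.16 log2 units, and differences inside them are not resolved.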
